A study of Caenorhabditis elegans with 7 samples.

Results

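The nlp and cnc genes described here code for small peptides of the type that the worm epidermis makes when its skin is infected by fungi or wounded. The set was given as a list of 10 genes, nlp-27, nlp-28, nlp-29, nlp-30, nlp-31, nlp-34, cnc-1, cnc-2, cnc-4 and cnc-5, and every probe set of each gene was used. Of these 10 genes, 9 had a probe set on the array, out of 17118 genes with a probe set of their own. No probe set could be given for nlp-34, which is not analysed further here. RNA came from whole young adults of the wild-type strain N2 of Caenorhabditis elegans. The worms were grown from the egg for 3 days at 20°C on NGM plates that held 1 µg/mL of 13L, a peptide isolated from cocoa, or on NGM alone, the standard agar medium. Both groups shared strain, stage and medium and carried no transgene, and each sample was hybridised to 1 Affymetrix C. elegans Genome Array. There were 3 arrays of 13L (SL4, SL8 and SL12, named by their titles) and 4 of NGM (SL1, SL5, SL9 and SL69). The study's methods describe the samples of a condition as biological replicates and give 1 more for 13L than the 3 arrays used here; a further array is not analysed here. How the replicates were cultured apart is not stated in the sources used here, and p-values measure the spread between these samples.

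The epidermis of the worm is a barrier tissue that secretes the cuticle and also mounts an innate immune response of its own. The nlp genes code for short peptides rich in glycine and tyrosine, grouped by name with the neuropeptide-like proteins although many of them are made in the epidermis. The best known is nlp-29, whose transcript is the standard read-out of fungal infection and wounding. Its induction by infection runs through a G protein and protein kinase C to a p38 MAP kinase cascade and the STAT-like factor STA-2. High salt also induces it, by a route that does not need that cascade. The cnc genes code for caenacins, peptides of a related type, and cnc-2 is known to depend on DBL-1, a TGF-β ligand made by neurons. Both families lie in tandem arrays on chromosome V.

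The deposited values are log2 probe set values after the authors' RMA background correction and quantile normalization, and every difference below is 13L minus NGM on that scale. Array medians lay between 1.01 and 1.06, and 2 arrays correlated at 0.982 to 0.995 over all probe sets. The array also holds 5 control probe sets against yeast transcripts, and the brightest of these had a mean of 0.74, so that values near 0.74 carry little signal. Of the 9 probe sets of the peptide genes, 6 had a mean above it, and cnc-1, cnc-2 and cnc-5 did not. Of all probe sets tested, 41.35% did not. At such low values many probe sets of 1 array share a value. On SL5, for example, cnc-1, cnc-2 and cnc-5 were all at 0.37, a value held by 381 probe sets. None of the 9 was annotated to a further gene. However, 7 of the 9 (all but cnc-4 and cnc-5) had an identifier ending in _x_at, which Affymetrix gives to probe sets with probes that also match other sequences, against 5.44% of all probe sets tested. Signal of near-identical relatives may therefore be included in the values of all 5 nlp genes, cnc-1 and cnc-2. Epidermal transcripts were present in this RNA, with 22 of 23 measured hypodermis markers, all but bli-1, above the yeast controls.

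All 9 peptide genes had a lower mean on the 13L arrays, whereas 48.4% of all 22548 probe sets tested had a negative difference. The median difference of the 9 genes was -0.29, and that of all genes was 0.001. nlp-31, nlp-29, cnc-4 and nlp-30 were lower at an unadjusted p under 0.05 (limma), which makes 4 of 9 where the share of all probe sets lower at that level was 2.57%. With runs of title numbers as blocks it was 3 of 9, without nlp-30, where the share of all probe sets was 4.06%. None of the 9 was higher at that level, against 2.54% of all probe sets. After Benjamini-Hochberg adjustment over all probe sets none of the 9 passed 0.05, and 0.0% of all probe sets did. The lowest adjusted p on the array was 0.944. In 2 of the 9, nlp-31 and cnc-1, every 13L array lay below every NGM array, a pattern seen in 2.77% of all probe sets. The opposite pattern was seen in none of the 9 and in 3.31% of all probe sets. With 3 arrays against 4, an exact two-sided permutation test cannot give a p below 0.05714. Since the RNA came from whole worms, less epidermis per worm and less transcript per epidermal cell cannot be told apart.

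**Figure D1:**
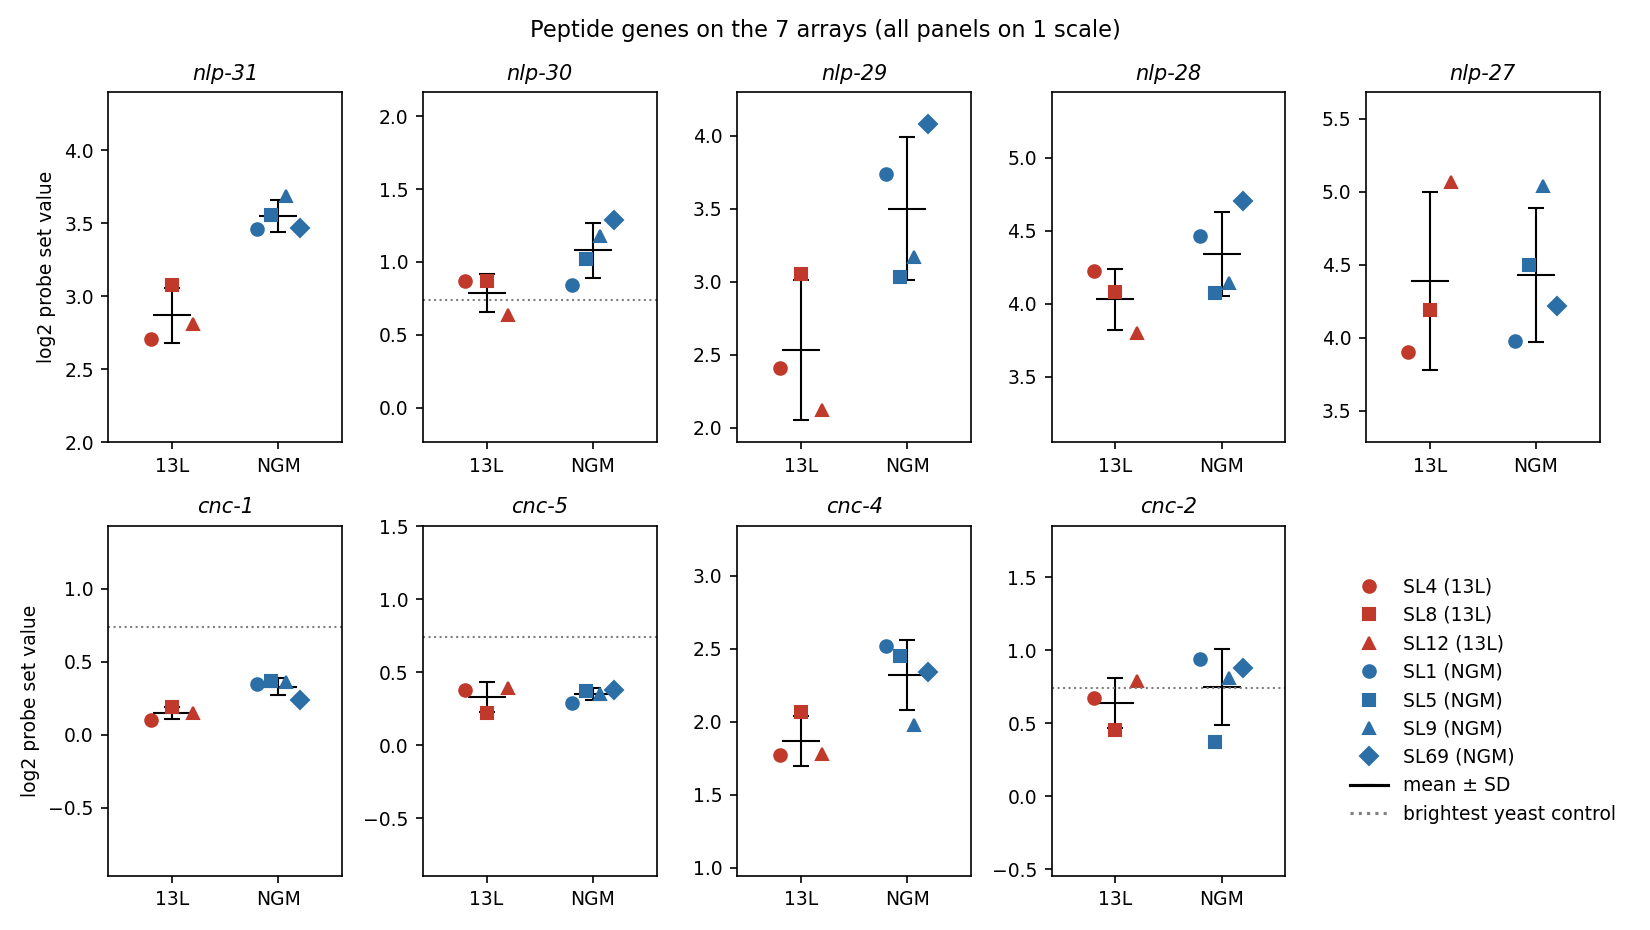
Log2 probe set value of each measured peptide gene (y axis, the same span of log2 units in every panel) on the 3 arrays of 13L and the 4 of NGM; symbols are arrays, black marks are means with SD, and the dotted line is the mean of the brightest yeast control (0.74). The groups are apart for nlp-31, meet only at SL8 (3.05) and SL5 (3.03) for nlp-29, and overlap widely for nlp-27.

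The nlp genes lie within 10.9 kb of chromosome V (WBcel235, RefSeq annotation) in the order nlp-34, nlp-31, nlp-30, nlp-29, nlp-28 and nlp-27. Next to nlp-34 lies nlp-31 (B0213.6, chrV:3980055-3980622), whose product has been shown to be active against fungi in vitro. Its values were 2.71, 3.08 and 2.81 on the 13L arrays SL4, SL8 and SL12, against 3.46, 3.56, 3.69 and 3.47 on the NGM arrays SL1, SL5, SL9 and SL69. The highest 13L array, SL8, was below the lowest NGM array, SL1, and the 4 NGM arrays lay close together. nlp-31 averaged 2.87 ± 0.19 (SD, n = 3) on 13L and 3.55 ± 0.11 (SD, n = 4) on NGM. The difference was -0.68 (SE 0.11, 95% interval -0.94 to -0.42), a ratio of 0.625, with an unadjusted p of 0.000226 and an adjusted p of 0.944 by limma. By its moderated statistic it was number 2 from the lowest of all probe sets tested. The exact permutation p was 0.0571, the smallest this design allows.

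The next gene, nlp-30 (B0213.5, chrV:3982356-3982741), was much dimmer. Its values were 0.87, 0.87 and 0.64 on the 13L arrays, against 0.84, 1.02, 1.18 and 1.29 on the NGM arrays. SL1 fell within the range of the 13L arrays, and SL12 lay below the yeast control level. nlp-30 averaged 0.79 ± 0.13 (SD, n = 3) on 13L and 1.08 ± 0.19 (SD, n = 4) on NGM. The difference of -0.29 (SE 0.13, 95% interval -0.57 to -0.01) had an unadjusted p of 0.0462 in limma. It had an unadjusted p under 0.05 in only 1 of the 7 fits that left out 1 array, which gave -0.37 to -0.21 with p of up to 0.16 by limma. With runs of title numbers as blocks it was -0.22, as in the fit without SL69, with an unadjusted p of 0.122 by limma.

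In the middle of the array lies nlp-29 (B0213.4, chrV:3984425-3984847), the gene used as the reporter of infection and wounding. Its values were 2.41, 3.05 and 2.12 on the 13L arrays SL4, SL8 and SL12, against 3.74, 3.03, 3.17 and 4.08 on the NGM arrays SL1, SL5, SL9 and SL69. Only SL8 and SL5 overlapped, by 0.02, and the lowest array was SL12 and the highest SL69. nlp-29 averaged 2.53 ± 0.48 (SD, n = 3) on 13L and 3.50 ± 0.49 (SD, n = 4) on NGM. The difference was -0.98 (SE 0.29, 95% interval -1.63 to -0.32), a ratio of 0.508, with an unadjusted p of 0.00809 and an adjusted p of 0.944 by limma. It was number 23 from the lowest of all differences, and its exact permutation p was 0.114. The spread was large as well, since 99% of the probe sets tested had a smaller SD over the 7 arrays. Leaving out 1 array at a time gave -1.24 to -0.77, all 7 fits with an unadjusted p under 0.05 by limma. Without SL69 and SL12 together, which held the 2 lowest array weights and were left out after the data were seen, it was -0.58 with an unadjusted p of 0.0616 by limma.

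The genes at the other end of the array differed less between the diets. nlp-28 (B0213.3, chrV:3987900-3988316) had values of 4.22, 4.08 and 3.80 on the 13L arrays, against 4.46, 4.07, 4.14 and 4.70 on the NGM arrays. As with nlp-29, SL12 was lowest and SL69 highest, but SL4 and SL8 lay among the NGM arrays SL5, SL9 and SL1. The means were 4.03 ± 0.21 (SD, n = 3) on 13L and 4.34 ± 0.29 (SD, n = 4) on NGM. The nlp-28 difference was -0.31 (SE 0.17, 95% interval -0.70 to 0.07) with an unadjusted p of 0.0984 by limma. Without SL69 and SL12 it was -0.08.

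nlp-27 (B0213.2, chrV:3989378-3989770) had values of 3.90, 4.19 and 5.07 on the 13L arrays SL4, SL8 and SL12, against 3.98, 4.50, 5.04 and 4.22 on the NGM arrays SL1, SL5, SL9 and SL69. Both groups ran over about the same range. The means were 4.39 ± 0.61 (SD, n = 3) on 13L and 4.43 ± 0.46 (SD, n = 4) on NGM. The difference was -0.05 (SE 0.31), with an unadjusted p of 0.877 by limma and a 95% interval of -0.75 to 0.65, wide enough to include differences of either sign. Leaving out 1 array at a time moved it between -0.39 and 0.20, and it turned positive without SL4, SL8 or SL9.

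The cnc genes lie within 6.1 kb of the same chromosome in the order cnc-1, cnc-5, cnc-4 and cnc-2. Among them, cnc-4 (R09B5.9, chrV:1447195-1447707), which codes for a caenacin, was the only one well above the yeast controls, and its probe set does not end in _x_at. Its values were 1.77, 2.07 and 1.78 on the 13L arrays SL4, SL8 and SL12, against 2.52, 2.45, 1.98 and 2.34 on the NGM arrays SL1, SL5, SL9 and SL69. The groups overlapped only through SL8 and SL9. cnc-4 averaged 1.87 ± 0.17 (SD, n = 3) on 13L and 2.32 ± 0.24 (SD, n = 4) on NGM. The difference was -0.45 (SE 0.15, 95% interval -0.78 to -0.12), a ratio of 0.734, with an unadjusted p of 0.0134 and an adjusted p of 0.944 by limma. In 6 of the 7 fits that left out 1 array it had an unadjusted p under 0.05. The exception was the fit without SL4, at -0.40 with an unadjusted p of 0.0508 by limma.

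The other 3 caenacin genes were at or below the yeast control level. cnc-1 (R09B5.2, chrV:1444044-1444280) had values of 0.10, 0.19 and 0.15 on the 13L arrays, against 0.35, 0.37, 0.36 and 0.24 on the NGM arrays. No 13L array reached the lowest NGM array, SL69, but every value was below 0.74. The difference was -0.18 (SE 0.08, 95% interval -0.37 to 0.01), with an unadjusted p of 0.0564 by limma.

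The read-out of DBL-1 signalling, cnc-2 (R09B5.3, chrV:1449665-1450189), had values of 0.67, 0.45 and 0.79 on the 13L arrays, against 0.94, 0.37, 0.81 and 0.88 on the NGM arrays. The lowest value belonged to an NGM array, SL5, and the difference was -0.11 (SE 0.15) with an unadjusted p of 0.48 by limma. cnc-5 (R09B5.10, chrV:1445381-1445832) had values of 0.38, 0.22 and 0.39 on the 13L arrays, against 0.29, 0.37, 0.35 and 0.38 on the NGM arrays. Its difference of -0.02 (SE 0.09, unadjusted p of 0.848 by limma) turned to 0.04 without SL8. For these 3 genes a difference was not detectable above background, which does not show that there was none.

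Genes beside the tandem arrays were read in the same way. The 10 genes nearest the nlp genes with a probe set of their own, 5 on each side, had differences of -0.26 to 0.09 with a median of 0, and 7 of them were not above the yeast controls. One of the 10, cyp-34A10, a cytochrome P450 gene, was lower at an unadjusted p of 0.0348 by limma, at values below the yeast control level on all arrays but SL9 (0.76). The 10 genes beside the cnc genes, read by 9 probe sets, had differences of -0.20 to 0.22 with a median of 0.08, and no unadjusted p was under 0.05 (limma). They included cnc-11, which shares a probe set with R09B5.11 (-0.20). cnc-3, which lies between cnc-4 and cnc-2, had a difference of -0.04, with 3.06, 2.69 and 2.83 on the 13L arrays and 2.82, 2.94, 2.83 and 3.01 on the NGM arrays. The caenacin genes cnc-4 and cnc-3, neighbours and both above background, thus had differences of -0.45 and -0.04, and the difference between the 2 was not tested.

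**Figure D2:**
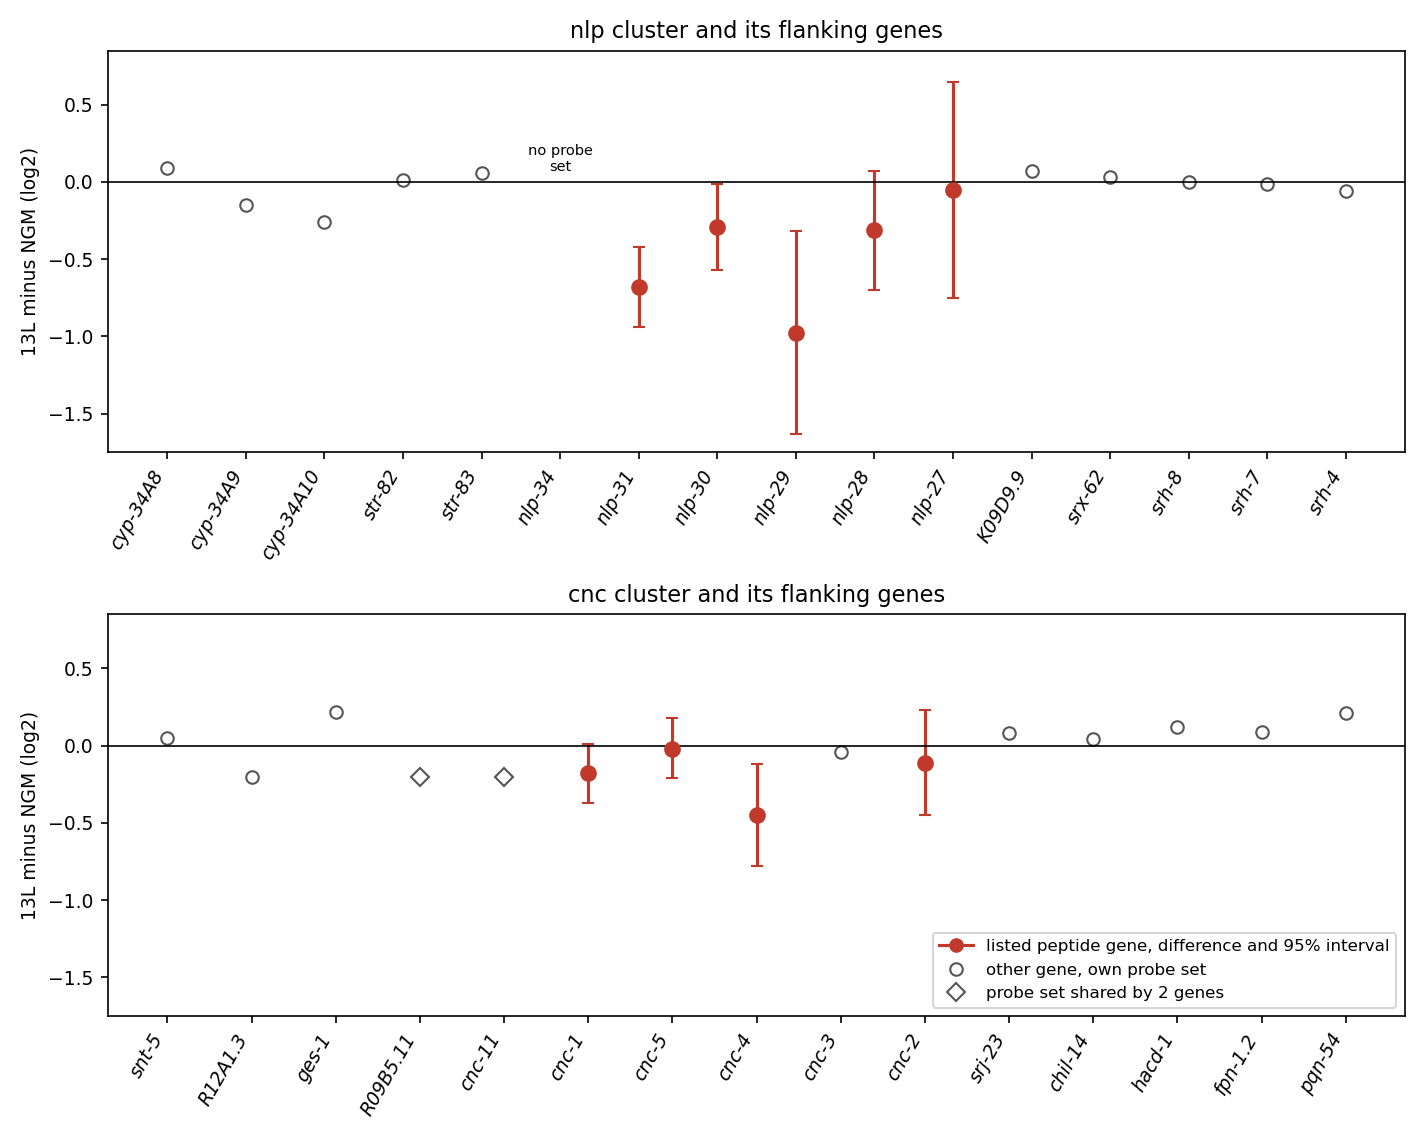
Difference between 13L and NGM (y axis, log2) for the listed peptide genes, filled with 95% intervals from limma, and for the genes beside and between them, open, in the order in which they lie on chromosome V (x axis, not to scale). In the upper panel nlp-31 (-0.68) and nlp-29 (-0.98) lie below all 10 flanking genes (-0.26 to 0.09), and in the lower panel cnc-4 (-0.45) lies below all of its flanking genes (-0.20 to 0.22).

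Whether genes of 1 tandem array moved together was examined over the 7 arrays. Of the 36 pairs among the 9 genes, 15 held nlp-31 or cnc-1, which the diets separate into 2 clusters. They were not tested, because a correlation over both groups would mostly restate that separation. Of the 21 other pairs, 2 had an exact two-sided permutation p under 0.05 and none after adjustment over the 21. The first pair was nlp-28 and nlp-29, neighbours in the nlp array, with Pearson's r of 0.87 (n = 7, exact permutation p = 0.0151, adjusted p = 0.312). Spearman's rho was 0.79 (n = 7, exact permutation p = 0.048, adjusted p = 0.619), and r was 0.55 without the 2 arrays farthest from the median of the pair's first gene. Among the 22548 probe sets tested, nlp-28 ranked 252 by its r with nlp-29, and nlp-29 ranked 504 by its r with nlp-28. The second pair, nlp-29 and cnc-4, lies in different arrays and had an r of 0.80 (n = 7, exact permutation p = 0.0298, adjusted p = 0.312). Its rho was 0.64 (n = 7, exact permutation p = 0.139, adjusted p = 0.619), and r was 0.78 without the 2 farthest arrays.

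The diet difference itself makes genes that are lower on 13L correlate, so the deviations from the mean of each diet were also compared, as a description over the same 7 arrays. With diet taken out in this way, nlp-28 and nlp-29 still moved alike (r = 0.83), both low on SL12 within 13L and high on SL69 within NGM. Among all probe sets tested, nlp-28 ranked 774 by this r with nlp-29, and nlp-29 ranked 1176 with nlp-28. Both have _x_at probe sets, and the part of signal shared between relatives in this r was not tested. For nlp-29 and cnc-4 the value was 0.51. For nlp-27 the values were negative, at -0.77 with nlp-28 and -0.63 with nlp-29. As deposited, r was -0.60 for nlp-27 with nlp-28 (n = 7, exact permutation p = 0.151, adjusted p = 0.621) and -0.28 without the 2 farthest arrays. For nlp-27 with nlp-29 it was -0.36 (n = 7, exact permutation p = 0.409, adjusted p = 0.847) and turned to 0.16 without the 2 farthest. The negative relation of these 2 genes in the deposited values thus rested on SL12 and SL9, the arrays farthest from the median of nlp-27. The deviations were not read without those arrays. nlp-31, the gene most clearly lower on 13L, had 0.08 with nlp-29, 0.24 with nlp-30 and -0.41 with nlp-28. Over the 10 nlp pairs the deviations gave a median r of 0.16 (-0.77 to 0.83), 6 of them positive, against a median of 0.53 for the values as deposited. The 6 cnc pairs had medians of -0.42 for the deviations and 0.02 for the values as deposited, with 3 of the 4 genes at background. The 20 pairs of an nlp with a cnc gene had -0.07 and 0.28.

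**Figure D3:**
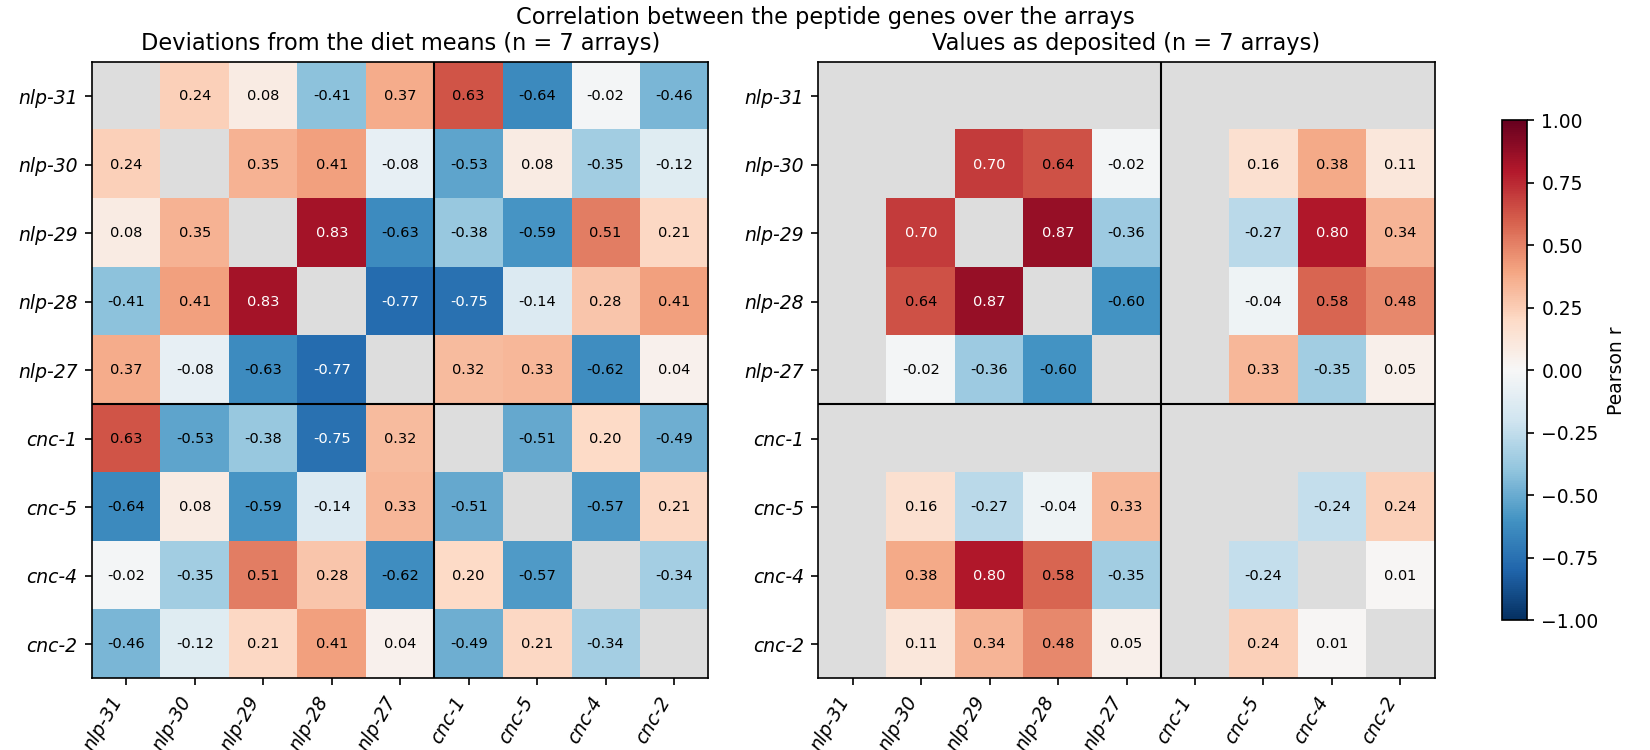
Pearson's r between the peptide genes over the 7 arrays, for deviations from the mean of each diet (left) and for the values as deposited (right); black lines divide the nlp from the cnc genes, and grey marks the diagonal and, on the right, pairs with nlp-31 or cnc-1. With diet taken out, nlp-28 and nlp-29 stand at 0.83 while nlp-27 stands at -0.77 and -0.63 with them, and the other nlp pairs lie between -0.41 and 0.41.

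Marker lists were read on the same arrays to see what else followed the order of the peptide genes. Summed over its 17 genes on the linear scale and given as log2, a list of molting genes stood at 8.11, 8.21 and 7.72 on the 13L arrays SL4, SL8 and SL12, against 8.36, 8.08, 7.88 and 8.38 on the NGM arrays SL1, SL5, SL9 and SL69. As for nlp-28 and nlp-29, SL12 was lowest and SL69 and SL1 were highest, while SL4, low for nlp-29, and SL9, low for the molting genes, differed in position. Log2 sums of the 12 osmotic stress genes had the same arrays at the ends. They were 8.39, 8.34 and 8.30 on the 13L arrays and 8.45, 8.33, 8.33 and 8.45 on the NGM arrays. These sums are carried by the bright genes osm-11 (mean of 7.13) and gpdh-2 (7.02). The median over the 12 genes was 2.23, 2.22 and 2.22 on the 13L arrays, against 2.42, 2.19, 2.2 and 2.5 on the NGM arrays. It was highest on SL69 and SL1 but lowest on SL5. Of the 17 molting genes 5 had a positive and 12 a negative difference, with a median of -0.06. mlt-10 was higher at 2.80 ± 0.05 (SD, n = 3) on 13L and 2.40 ± 0.21 (SD, n = 4) on NGM, with an unadjusted p of 0.01 and an adjusted p of 0.944 by limma. The protease inhibitor gene mlt-11 (-0.72) and the cuticle matrix gene noah-1 (-0.54) had the most negative t values after mlt-8 (-0.58), and none of these 3 had an unadjusted p under 0.05. nas-36 and qua-1 were not above the yeast controls. The part of the molting and osmotic stress genes in the result was not tested.

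Sums or medians of several lists ran over the arrays in an order like that of nlp-27. The log2 sum of 8 fip and fipr genes, further small peptide genes, was 6.96, 7.18 and 7.90 on the 13L arrays SL4, SL8 and SL12, against 6.93, 7.30, 7.91 and 7.23 on the NGM arrays SL1, SL5, SL9 and SL69. As for nlp-27, SL4 and SL1 were lowest and SL12 and SL9 highest. This sum is carried by a few bright genes, fipr-21 above all (mean of 6.7). The median over the 8 genes was 1.4, 1.56 and 1.54 on the 13L arrays, against 1.64, 1.49, 1.41 and 1.58 on the NGM arrays. It was highest on SL1 and did not follow nlp-27. The hypodermis sums, like the fip and fipr sums, were highest on SL12 (12.64) and SL9 (12.61). The median of 16 sperm markers was 4.11, 6.63 and 7.53 on the 13L arrays SL4, SL8 and SL12, against 2.48, 7.06, 7.0 and 5.28 on the NGM arrays SL1, SL5, SL9 and SL69. The arrays with the lowest nlp-27 (SL4 and SL1) had the lowest sperm medians, and SL12, with the highest nlp-27, had the highest. The sperm list had a median difference of 0.53 (13 of 16 positive, none at an unadjusted p under 0.05), its log2 sum lay at 8.79 to 11.80 on 13L and 7.0 to 11.60 on NGM, and spe-11 was not above the yeast controls. The part of these lists in the spread of nlp-27 was not tested.

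Markers of the epidermis itself were read by their sum and by their median. The log2 sum of the 23 hypodermis markers was 12.51 to 12.64 on the 13L arrays and 12.52 to 12.61 on the NGM arrays. This sum is carried by a few very bright collagen genes. The median over the 23 markers was 2.66, 2.86 and 2.76 on the 13L arrays, against 3.07, 3.16, 2.71 and 3.70 on the NGM arrays, so that it was lower on 13L than on every NGM array but SL9. The part of these markers in the result was not tested. Of these markers 10 had a positive and 13 a negative difference, with a median of -0.07. The cuticle collagen gene sqt-1 was the only one with an unadjusted p under 0.05. It averaged 0.77 ± 0.12 (SD, n = 3) on 13L and 1.40 ± 0.50 (SD, n = 4) on NGM, with an unadjusted p of 0.0276 and an adjusted p of 0.944 by limma. The other tissues gave median differences of -0.03 for 14 intestine, 0.02 for 12 body wall muscle, -0.10 for 13 pharynx, -0.20 for 20 neuron and 0.12 for 16 oocyte markers. Among the 20 neuron markers 16 were negative, where 48.4% of all probe sets were. unc-31 (-0.35) and egl-21 (-0.25), both needed for neuropeptide release or processing, were lower at an unadjusted p under 0.05 by limma (0.0133 and 0.0237). That makes 2 of 20, where the share of all probe sets was 2.57%. In 3 of the 20, unc-31, egl-21 and flp-1, every 13L array lay below every NGM array, a pattern seen in 2.77% of all probe sets. The neuron list summed to 7.89 to 8.04 on 13L and 8.06 to 8.15 on NGM in log2, with unc-31, aex-3 and rgef-1 not above the yeast controls, and its part in the result was not tested. gem-4 in the intestine list was lower (-0.48) and oma-1 in the oocyte list higher (0.27) at an unadjusted p under 0.05 by limma.

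**Figure D4:**
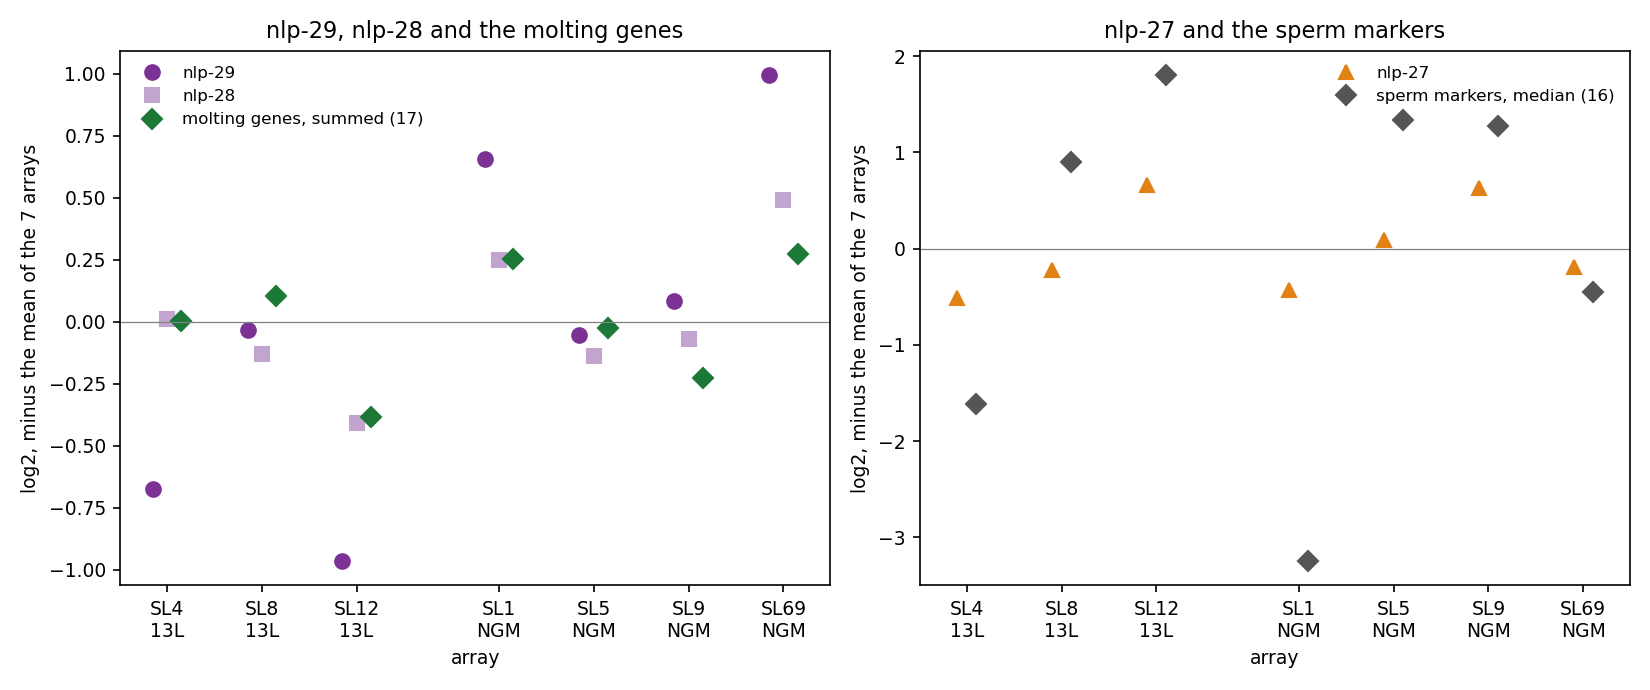
Values on each array minus the mean of the 7 arrays (y axis, log2), for nlp-29, nlp-28 and the summed molting genes (left) and for nlp-27 and the median of the sperm markers (right), with the 3 arrays of 13L left of the 4 of NGM. nlp-28 and the molting genes are lowest on SL12 and highest on SL69, and nlp-27 and the sperm markers are low on SL4 and SL1 and highest on SL12.

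The components known to act upstream of nlp-29 were read from a list of 19 genes, 18 of them measured. Of these 5 had a positive and 13 a negative difference, with a median of -0.04. The levels of the kinases sek-1 (-0.03) and pmk-1 (-0.05), the adaptor tir-1 (-0.03), the receptor dcar-1 (-0.03) and the epidermal GATA factor elt-3 (-0.13) differed by less than the spread between replicates on their brightest probe sets. Dimmer probe sets of tir-1 and egl-8 had -0.49 and 0.25, with unadjusted p of 0.0106 and 0.0489 by limma. The protein kinase C gene tpa-1 (-0.32) and the phospholipase gene egl-8 (-0.19) also missed an unadjusted p of 0.05 by limma on their brightest probe sets. sta-2, snf-12, nipi-4, doxa-1 and hpx-2 were not above the yeast controls. The 1 gene with an unadjusted p under 0.05 was ced-1, an engulfment receptor, at 2.51 ± 0.25 (SD, n = 3) on 13L and 2.98 ± 0.10 (SD, n = 4) on NGM, with an unadjusted p of 0.00528 and an adjusted p of 0.944 by limma. Its second probe set went the other way (0.24).

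Of the 12 genes of the DBL-1 pathway upstream of cnc-2, 11 were measured, 4 with a positive and 7 with a negative difference (median -0.09), and none was past an unadjusted p of 0.05 by limma. The ligand gene dbl-1 (0.17), its receptor gene sma-6 (-0.02) and the Smad gene sma-3 (-0.12) were among them. Of the 12 osmotic stress genes, 4 had a positive and 8 a negative difference. gpdh-1, the glycerol synthesis gene that high salt induces, had a difference of 0.13 and gpdh-2 one of 0.16, neither at an unadjusted p under 0.05. ptr-23, a patched-related gene, was lower on its brightest of 4 probe sets at 3.69 ± 0.12 (SD, n = 3) on 13L and 4.31 ± 0.29 (SD, n = 4) on NGM, with an unadjusted p of 0.00317 by limma. The 3 others gave -0.30, -0.23 and -0.03. osr-1 was also lower (-0.33, unadjusted p = 0.0498 by limma). None of these genes passed after adjustment.

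Further peptide genes were read from lists of the same families. Of 12 other nlp and cnc genes 9 were measured, 3 with a positive and 6 with a negative difference and a median of -0.11. cnc-6 was the only one with an unadjusted p under 0.05, and it was higher, at 0.84 ± 0.19 (SD, n = 3) on 13L and 0.58 ± 0.07 (SD, n = 4) on NGM, near background, with an unadjusted p of 0.036 and an adjusted p of 0.944 by limma. cnc-7 had a difference of -0.45 and the brighter nlp-33 one of -0.27, with unadjusted p of 0.151 and 0.129 by limma. Of 22 fip and fipr genes, fungus-induced peptides and their relatives, 8 were measured, 4 positive and 4 negative with a median of 0.0, and none was past an unadjusted p of 0.05.

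The genes most like nlp-29 over the 7 arrays, among 12493 probe sets of 1 gene above the yeast controls, were ric-8 (r = 0.994), fbxb-57 (0.980), ain-1 (0.978), sar-1 (0.976) and sma-1 (0.975). These code for a regulator of G protein alpha subunits, an F-box protein, a partner of Argonaute in the microRNA complex, a GTPase of the secretory pathway and a heavy spectrin. cnc-2 itself was not above the yeast controls, so the genes with the highest r with it are named without weight on their order. They were C14C6.5 (0.991), irg-5 (0.991), pat-12 (0.980), atx-2 (0.968) and spig-9 (0.964). The listed peptide genes were left out of both rankings by design. With 7 arrays and this many candidates high values of r arise readily.

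**Figure D5:**
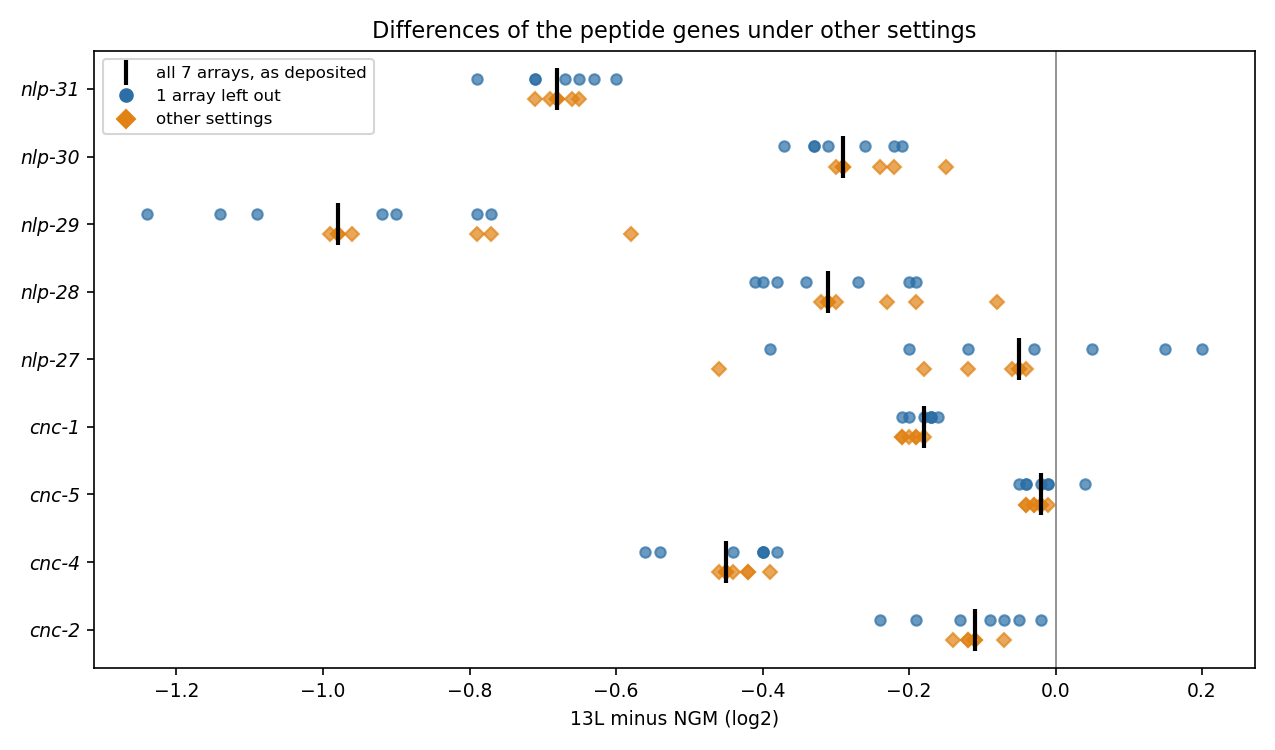
Difference between 13L and NGM (x axis, log2) for each measured peptide gene (y axis) with all 7 arrays as deposited (black bar), with 1 array left out (circles) and under other normalizations, weights, blocks and sets of arrays (diamonds). nlp-31 keeps between -0.79 and -0.60, nlp-29 runs from -1.24 to -0.58, and nlp-27 crosses 0.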

How the data were processed

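RNA of 7 samples was measured on Affymetrix C. elegans Genome Arrays. For the deposited log2 values per probe set, the authors had used RMA background correction and quantile normalization. RMA and limma are named in the submitters' processing notes, with versions not given in the sources used here, and no scanner files were used here. Genes were assigned to probe sets from the platform annotation (22625 probe sets, 77 of them Affymetrix controls, 20766 with 1 gene, 887 with several and 895 with none) and a RefSeq gene table of WBcel235. The other 22548 probe sets entered the moderated test of limma 3.58.1, run in R 4.3.3 (lmFit and eBayes, two-sided, Benjamini-Hochberg). The number of arrays limits the precision. The brightest probe set stood for a gene of the further lists, which were taken from general knowledge. The listed genes, the further lists and the tests were chosen with earlier results of these data known. From each further list up to 4 genes with the largest moderated t were to be named, and other members of them were named after their values were seen. Genes most like nlp-29 and cnc-2 were ranked by Pearson's r. Correlations were tested by all 5040 pairings (scipy 1.17.1).

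The alternatives were each array left out, blocks by runs of title numbers, median centring, cyclic loess, trend and robust settings, array weights, probe sets above the yeast controls, and probe sets without shared, _s_at or _x_at identifiers. A fit without SL69 and SL12 was added once results were known. No replicate number is shared between the groups in the labels. By their titles SL4 runs next to SL1, SL8 next to SL5 and SL12 next to SL9, and within these pairs the deviations from the diet means correlated at 0.529, 0.156 and 0.537, although no source says what these runs mark. The procedure was tested on simulated data.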

Additional observations from a re-analysis of the deposited data

Results flagged for a closer look

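Over the 4 NGM arrays, cnc-1 had 1 array far from the others. SL69 stood at 0.24, against 0.35, 0.37 and 0.36 on SL1, SL5 and SL9, and the gap took up 0.854 of the range, above Dixon's critical value for 4 samples. All of these values were below the yeast control level of 0.74, and such gaps turn up by chance in about 1 in 20 groups. The 3 arrays of 13L were too few for this check.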

How the results depend on the processing

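Under no alternative did a peptide gene pass an adjusted p of 0.05 in limma, the lowest being 0.232. The median difference of the 9 genes stayed negative in all 15 (-0.38 to -0.21). The number lower at an unadjusted p under 0.05, 4 with all arrays, was 2 to 4 with 1 array left out (2 without SL4), 1 of the 2 probe sets left without shared identifiers (cnc-4) and 1 without SL69 and SL12 (nlp-31). The share of all probe sets lower at that level was 1.76% (without SL8) to 3.12% (without SL9) with 1 array left out. It was 2.65% without SL4, 2.58% without shared identifiers and 2.23% without SL69 and SL12. With title runs as blocks the number of peptide genes lower at that level was 3, and the share of all probe sets was 4.06%. In that fit nlp-29 had -0.79, nlp-31 -0.71 and cnc-4 -0.44, and nlp-30, at -0.22, was no longer among them. This pairing changed no other call. SL69 had no partner in the runs and formed a block alone, so the blocked differences equal those of the fit without SL69. The genes that made up the number lower at an unadjusted p under 0.05 changed as well. By limma, nlp-30 was among them in 2 of 14 alternatives and cnc-1, below background, in 4 of 13. Genes with every 13L array below every NGM array, 2 with all arrays, were 2 to 4 with 1 array left out (4 without SL8 and 4 without SL5), 1 among probe sets above the yeast controls and 0 without shared identifiers. Fewer arrays make this separation easier to reach, and its share of all probe sets is not given here for these fits. The median r of the cnc pairs was -0.28 to 0.50 with 1 array left out (0.50 without SL5). nlp-27 ran from -0.39 to 0.20 with 1 array left out and changed sign without SL9 (0.15), SL4 (0.20) and SL8 (0.05), and cnc-5 ran from -0.05 to 0.04 and changed sign without SL8 (0.04). The blocked fit used all probe sets but drew its differences from the arrays other than SL69. The other fits named here used fewer arrays or probe sets. The cause was not tested otherwise. The groups share no replicate numbers in the labels, so title runs were the only pairing tried. Probe sets near the yeast controls, cnc-1, cnc-2 and cnc-5 among them, limit what a low value can show.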
